A study of Danio rerio with 49 samples.

Results

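Of the 120059 genomic windows with a replication timing profile in zebrafish embryos, 1843 (1.54%) replicated later in *rif1* omf201/omf201 embryos than in wild type (WT) at 24hpf while the genotypes lay close together at the Shield and Bud stages. They were chosen from the deposited z-scores by the difference of group means, omf201 minus WT. A member lay below -0.8 at 24hpf and within 0.3 of 0, in either direction, at both Shield and Bud. A z-score here is a smoothed ratio of replicating to G1 DNA, scaled within each library to mean 0 and SD 1 across windows, so windows with higher values replicated earlier in the order of their library. The members joined into 161 runs of neighbouring windows and covered 27.4 of the 1309.5 Mb under all windows. Since the values at Shield, Bud and 24hpf chose the members, those values are given as descriptions with no test.

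Genomic DNA is copied in a set order in S phase, and a sequence copied early is present in more copies per cell in S phase than one copied late. Rif1 is a conserved protein that brings protein phosphatase 1 to chromatin and opposes the kinase that activates replication origins. In yeast and mammalian cells its loss disturbs the timing order, with some late domains advanced and some early domains delayed. In zebrafish the early cleavage cycles lack gap phases, and the timing order takes its later shape after the mid-blastula transition as the cell cycle lengthens.

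All embryos were of the Tab5 strain, and each stage compared rif1 omf201/omf201 with WT embryos. The stages were preMBT (before the mid-blastula transition, 2 to 2.5 hours after fertilisation), Shield (6 hours), Bud (10 hours) and 24hpf (24 hours). At preMBT, 3 omf201 and 3 WT libraries were made from unsorted pools of whole embryos, and at Shield 5 omf201 and 6 WT libraries. At Bud and at 24hpf, nuclei were sorted by DNA content into S and G1 fractions, with 4 omf201 and 4 WT libraries of each fraction, 49 libraries in all. For the last stage the sorting protocol names a somewhat later age than the labels, and the labels' 24hpf is used here. The step between Shield and Bud changed the stage and the kind of sample together, and the effects of these cannot be told apart. Whole embryos mix all cell types, and sorting nuclei by DNA content does not separate these. At every stage, 24hpf included, a shift in timing and a shift in the mixture of cells thus cannot be told apart either. The labels do not say which replicates came from separate clutches, so p-values measure the spread between these samples, which may be technical.

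Depth, summed over 20460 windows overlapping by at most 1 base, was 16.2 to 20.2 M counts (M, mega) in the preMBT libraries and 9.18 to 37.4 M in those of Shield. S nuclei gave 5.90 to 15.1 M at Bud and 12.7 to 22.4 M at 24hpf. At Shield, omf201 replicates 1 and 2, WT replicates 1 and 2 and WT replicates 3 and 4 differed by about the sampling noise (chi-square per degree of freedom 0.958 to 1.09). The libraries of such a pair were averaged, leaving 4 samples of each genotype. Every pair within a preMBT group was also near sampling noise (0.953 to 1.10), and those 3 libraries of each genotype were kept as samples, so their spread may not include that between embryo pools.

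At 24hpf the members stood in the middle of the omf201 timing order and near the early end of the WT order. The median z-score over the 1843 windows was -0.0917, -0.153, -0.156 and -0.108 in the 4 omf201 samples, against 1.03, 1.01, 0.996 and 1.01 in the 4 WT samples. Every omf201 value lay below every WT value, and the spread within each genotype was small beside the gap. As a place in the library's own order of all windows, the median member stood at percentile 53.0 ± 1.37 in omf201 and 80.9 ± 0.381 in WT (SD, n = 4 each). Over single windows the difference ranged from -2.05 to -0.80 with a median of -1.04, and 162 members (8.79%) lay below -1.5. Near the limit, 442 members (24.0%) lay between -0.9 and -0.8, and 620 windows that met the Shield and Bud limits lay just outside, between -0.8 and -0.7. In all 1843 members the 4 omf201 samples were below the 4 WT samples without overlap, beside 32.2% of all windows. The rule used these samples, so nothing is read from that count or from the gap between the sample medians.

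The earlier stages looked different. At preMBT the sample medians were -0.0554, -0.00387 and 0.0321 in omf201 and -0.312, -0.0663 and -0.236 in WT, all near the middle of the order. At Shield they were 1.06, 1.05, 1.06 and 1.08 in omf201 and 1.11, 1.08, 1.09 and 1.15 in WT. At Bud they were 0.865, 0.895, 0.804 and 0.934 in omf201 and 0.988, 1.09, 0.958 and 1.01 in WT. Members thus belonged to the early-replicating part of both genotypes at Shield and Bud, with percentiles of 84.6 ± 0.360 in omf201 and 85.0 ± 0.584 in WT at Shield and 79.4 ± 1.35 in omf201 and 82.0 ± 1.64 in WT at Bud (SD, n = 4 each). The rule keeps the genotypes within 0.3 of each other at these stages but does not fix where in the order they lie. Within those limits, the Bud differences lay mostly on the negative side (1249 members, 67.8%, below 0, median -0.11), whereas the Shield differences were spread evenly (912 members, 49.5%, below 0, median 0.0023).

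**Figure D1:**
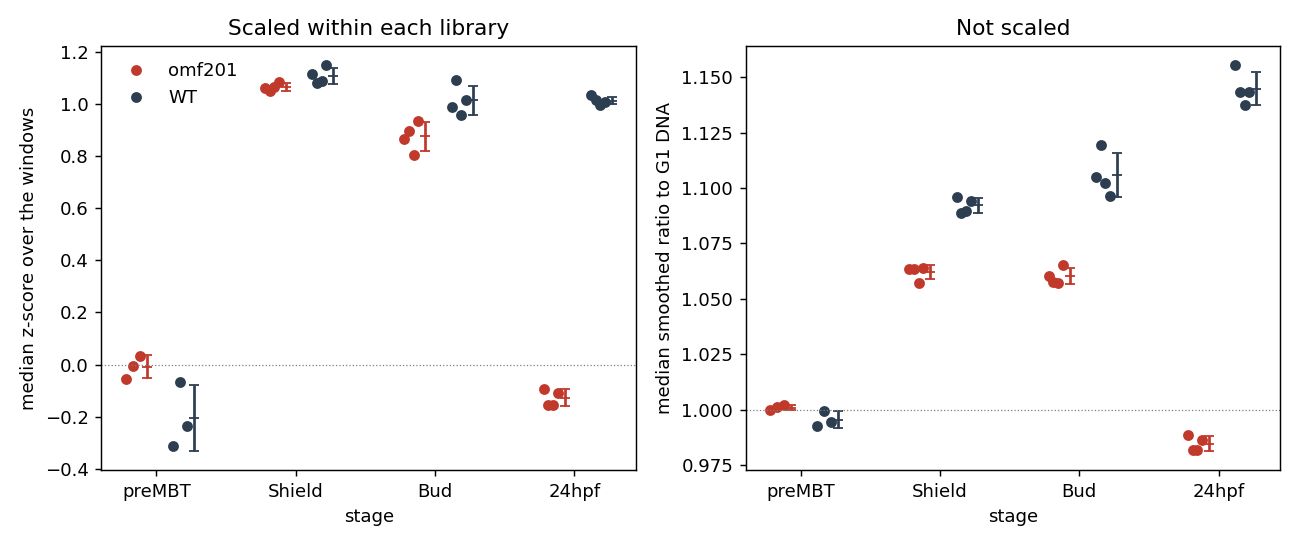
Median over the 1843 windows in each sample (points) with mean and SD beside them, by stage, omf201 left of WT. Left, z-score. Right, smoothed ratio to G1 DNA without scaling. On the left the genotypes are close at Shield and Bud and apart at 24hpf (omf201 -0.127, WT 1.01). On the right omf201 already lies under WT at Shield (omf201 1.062, WT 1.092) and Bud (omf201 1.060, WT 1.106).

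The name "later only at 24hpf" describes the z-scores that chose the members, where each library has the same SD, and not the ratios before scaling. On z-scores with 1 G1 reference common to both genotypes, 950 members (51.5%) met the rule. The median smoothed ratio over members was 1.062 ± 0.00317 in omf201 and 1.092 ± 0.00337 in WT at Shield, 1.060 ± 0.00360 in omf201 and 1.106 ± 0.00979 in WT at Bud, and 0.985 ± 0.00328 in omf201 and 1.145 ± 0.00753 in WT at 24hpf (SD, n = 4 each). The omf201 samples lay under the WT samples without overlap at all 3 stages. Windows above 0.8 at 24hpf and within 0.3 at Shield and Bud stood at percentile 33.3 in omf201 and 34.1 in WT at Shield. Their Shield ratio went the other way, at 0.974 in omf201 and 0.962 in WT. Whether the members' shift before 24hpf goes beyond a narrower range of omf201 ratios was not tested. On log2 ratios centred on each library's median, the omf201 minus WT difference had a median of -0.03 at Shield, -0.04 at Bud and -0.17 at 24hpf over members. It was below 0 in 1581 members (85.8%) at Shield and 1543 (83.7%) at Bud. Of all windows, early and late together, it was below 0 in 49.9% and 44.3% at those stages. The same held in the S-fraction counts without a G1 reference, each library scaled to its mean. Their log2 difference over members had a median of -0.06 at Bud and -0.23 at 24hpf, and it was below 0 in 1473 (79.9%) and 1839 (99.8%) members at those stages, against 50.2% and 46.9% of all windows. The difference was largest at 24hpf on each of these scales, with the S-fraction counts compared at Bud and 24hpf only. The rule favours this in the same libraries, so nothing is read from it. The restriction to 24hpf was present in the order within each library and absent from the ratios before scaling. Percentiles, which scaling leaves unchanged, were 84.6 in omf201 and 85.0 in WT at Shield. They were 79.4 in omf201 and 82.0 in WT at Bud, and 53.0 in omf201 and 80.9 in WT at 24hpf. The rule was also applied to log2 ratios divided by the SD of the WT libraries of each stage. It was met by 593 windows, of which 280 were members (15.2% of the members and 47.2% of the 593). On that scale the members' median difference at 24hpf was -0.78, short of the -0.8 limit, so most members missed it at 24hpf itself. At Shield 993 members (53.9%) and at Bud 1081 (58.7%) stayed within 0.3.

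The members came from the early end of the WT order. Ranking all windows by mean WT z-score at 24hpf and splitting them into quintiles put 977 members (53.0%) in the earliest quintile, 616 (33.4%) in the next and 0 in the latest. At Bud, 1018 members (55.2%) were in the earliest WT quintile, and at Shield 1082 (58.7%). At preMBT the members were spread over the whole order, with 449, 389, 444, 275 and 286 windows from the latest quintile to the earliest. The rule asks for a WT value well above the omf201 value at 24hpf and so is not neutral to the WT order there. At Shield and Bud it sets no direct bound on the level. Over all windows, though, the WT z-score at 24hpf had a Pearson correlation of 0.817 with that at Bud and 0.621 with that at Shield. Early levels at Bud and Shield thus partly carry over from the choice at 24hpf.

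Both of the most similar sets give a scale for the members' place in the WT order. The 1417 windows that passed the mirror rule, above 0.8 at 24hpf and within 0.3 at Shield and Bud, were spread across the WT order at 24hpf, with 18.0% in the latest quintile and 19.5% in the earliest. The 5346 windows below -0.8 at 24hpf and at or below -0.3 at both Bud and Shield had 36.0% in the earliest quintile and 43.9% in the next at 24hpf. In the WT order at Bud and Shield they had 46.3% and 57.9% in the earliest quintile (for the members 55.2% and 58.7%). All 3 sets were cut from the same values, so these shares describe them and were not tested.

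**Figure D2:**
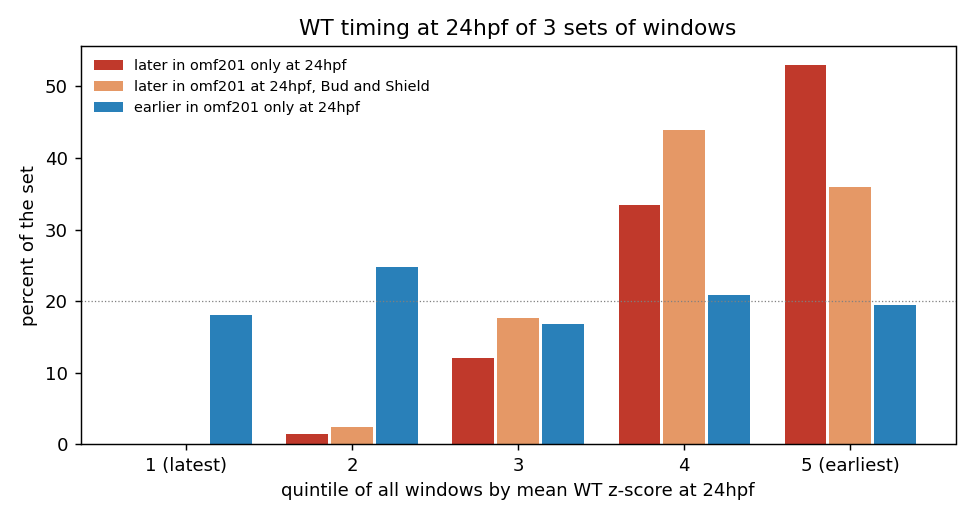
Share of 3 sets of windows in each quintile of all windows, ordered by mean WT z-score at 24hpf (1 latest, 5 earliest), with a dotted line at the 20% of an even spread. Of the windows later in omf201 only at 24hpf, 53.0% lie in quintile 5 and none in quintile 1.

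Between Bud and 24hpf most members became lower in omf201, while the WT values stayed on average near those at Bud. The change from Bud to 24hpf had a median of -0.97 in omf201 and 0.08 in WT. In omf201, 1561 members (84.7%) were lower by over 0.3 and 37 were higher by over 0.3. In WT, 904 members (49.1%) stayed within 0.3, 561 (30.4%) were higher and 378 (20.5%) lower. Over all windows 34.8% were lower and 32.8% higher in omf201, and in WT 41.0% stayed within 0.3, 29.3% were higher and 29.7% lower. Between Shield and Bud the medians were close, at -0.25 in omf201 and -0.17 in WT, and between preMBT and Shield both moved earlier, by a median of 1.10 in omf201 and 1.15 in WT.

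The members divided into groups by this last step. The most frequent pattern, in 903 windows (49.0%, against 11.99% of all windows), was a lower value in omf201 with WT within 0.3. These windows had a median z-score at Bud of 1.09 in omf201 and 1.21 in WT, and at 24hpf of -0.0080 in omf201 and 1.19 in WT. A further 378 windows (20.5%, against 21.2% of all windows) were lower in both genotypes, further so in omf201. Their medians at 24hpf were -0.44 in omf201 and 0.62 in WT. In 280 windows (15.2%, against 1.63% of all windows) omf201 was lower and WT higher than at Bud, with 24hpf medians of 0.019 in omf201 and 1.06 in WT. The rule fixes the difference at both stages and so favours patterns in which the genotypes part.

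The remaining windows were not lower by over 0.3 in omf201. In 244 windows (13.2%, against 7.497% of all windows) WT moved earlier by over 0.3 while omf201 stayed within 0.3 of its Bud value, and in 37 windows both moved earlier, WT further. The 244 windows had Bud medians of -0.13 in omf201 and 0.032 in WT, in the middle of the order, and 24hpf medians of -0.17 in omf201 and 0.87 in WT. The WT advance and the steady omf201 value define this group, so they are no separate result. They are changes in place within each library's order, and whether they hold on the ratios before scaling was not tested.

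Counted by runs, 78 of 161 (48.4%) had a mean lower by over 0.3 in omf201 with WT within 0.3, and 30 (18.6%) were lower in both. In 16 runs omf201 was lower and WT higher, in 30 (18.6%) omf201 was within 0.3 and WT higher, in 6 both were higher and in 1 both stayed within 0.3. The 52 runs with a WT advance had lower WT values at Bud than the 78 runs with a steady WT value, with medians of -0.049 for the 30, 0.500 for the 16, -0.207 for the 6 and 1.14 for the 78. The WT value at Bud is subtracted in the change that defines these groups. A large advance thus favours a low Bud value, and nothing is read from these medians.

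**Figure D3:**
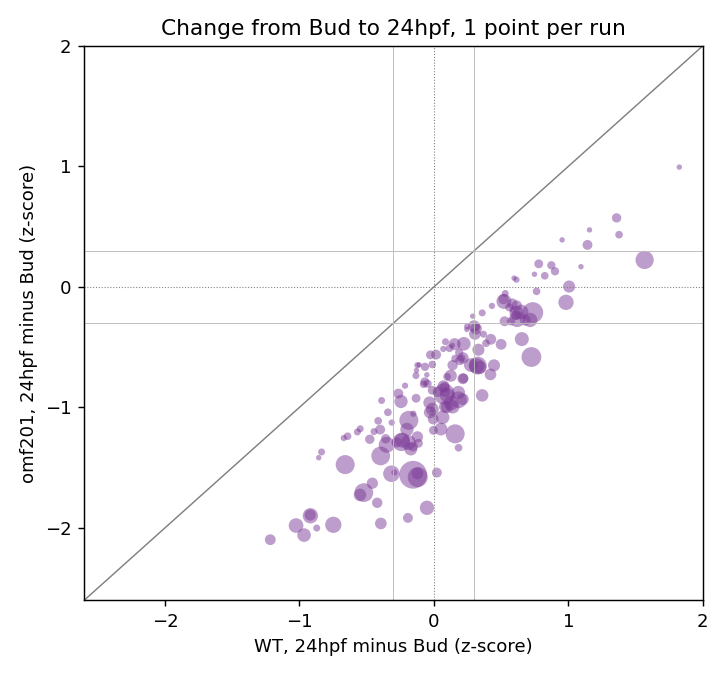
Change in mean z-score from Bud to 24hpf for each of the 161 runs, WT on the horizontal and omf201 on the vertical axis, with point area growing with the number of windows. Grey lines mark changes of 0.3 and the diagonal marks equal change. Every run lies below the diagonal, as the rule requires, and 124 runs lie below -0.3 in omf201.

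The runs had a median length of 140 kb (8 windows), the longest was 820 kb with 77 windows, and 15 were single windows. Neighbouring windows of 60 kb are usually 10 kb apart and share reads, and the deposited profiles are smoothed, so the windows of a run are not independent. Most runs were parts of longer stretches: 152 of 161 lay inside a stretch of windows below -0.8 at 24hpf that reached beyond the run. All 161 runs together lay in 144 stretches with a median of 42 windows, counting runs that were a whole stretch by themselves. Of the 322 run ends, 129 (40.1%) lay where the 24hpf difference passed -0.8. A further 112 ends (34.8%) lay where the Bud difference reached -0.3 or below, so the neighbouring windows were already later in omf201 at Bud, and 35 where the Shield difference did so. In the other direction, 22 ends lay where the Bud difference reached 0.3 or above and 23 where the Shield difference did so. Only 8 runs were bounded on both sides by the 24hpf limit. In the same way, of all 18075 windows below -0.8 at 24hpf the members made up 10.2%, while 7677 (42.5%) were at or below -0.3 at Bud only, 5346 (29.6%) at both Bud and Shield and 752 (4.16%) at Shield only. The other 2457 (13.6%) were at or above 0.3 at Shield or Bud.

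In WT most runs stood above their surroundings at Shield, Bud and 24hpf, whereas in omf201 at 24hpf most stood below them. The rule favours a lower centre in omf201 than in WT at 24hpf and near-equal centres at Shield and Bud. These values are thus a description and were not compared with another set of windows. The run centre minus the mean of the positions 500 kb to either side could be taken for 146 runs. At 24hpf it had a median of -0.21 in omf201 and 0.53 in WT, and it was above 0 in 55 runs in omf201 and 121 in WT. At Bud the medians were 0.50 in omf201 and 0.53 in WT, and at Shield 0.55 in omf201 and 0.51 in WT. At 24hpf, 17 runs (10.6%) held a local maximum of the omf201 profile and 31 (19.3%) one of the WT profile, taken over 250 kb to either side. Local minima were in 16 runs (9.94%) in omf201 and 4 (2.48%) in WT.

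**Figure D4:**
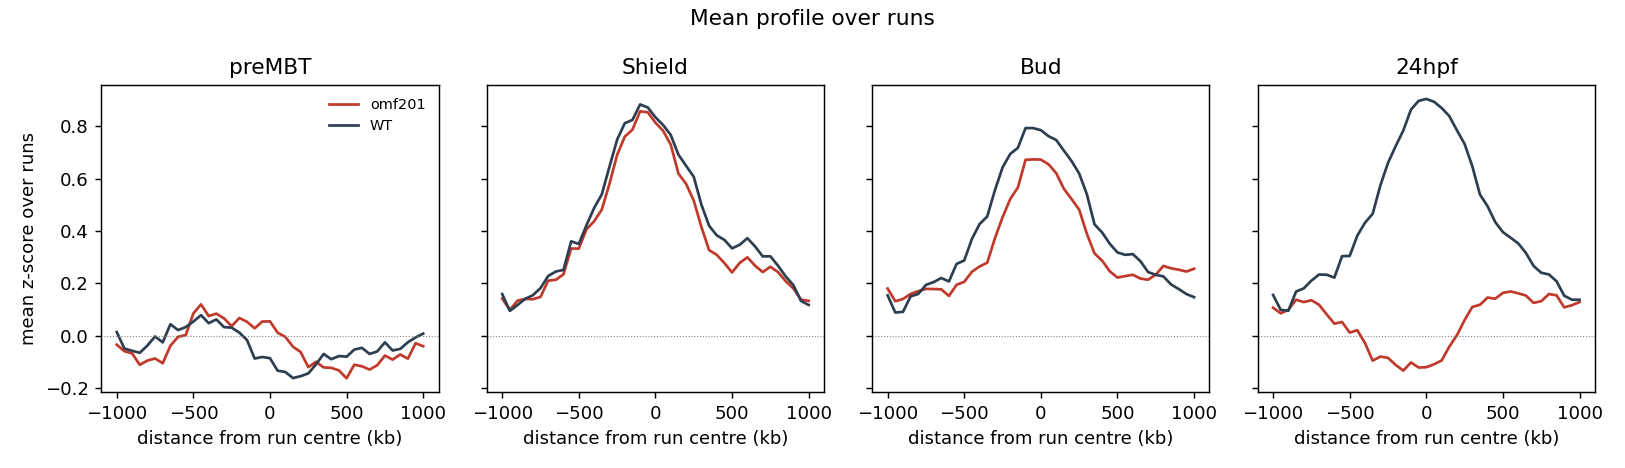
Mean z-score over up to 161 runs by distance from the run centre, omf201 and WT, 1 panel per stage. The peak at the centre is present in both genotypes at Shield and Bud, and at 24hpf it is present in WT (0.904 at the centre) and not in omf201 (-0.121). The rule favours this difference between the genotypes at the centre.

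The longest run lay on chromosome 3 from 32090000 to 32910001 (positions here and below as the files give them, build GRCz11) and held 77 windows. At 24hpf its mean z-score was -0.0244, -0.0848, -0.0751 and -0.00321 in the omf201 samples and 1.28, 1.37, 1.44 and 1.47 in the WT samples, a difference of -1.44. The omf201 values lay together at the middle of the order, and all WT values were high, but the rule chose the windows by this gap. At Bud the means were 1.51 ± 0.120 in omf201 and 1.54 ± 0.235 in WT, and at Shield 1.93 ± 0.195 in omf201 and 1.94 ± 0.0648 in WT (SD, n = 4 each). At both stages the z-scores of the genotypes overlapped, which the rule favours. At preMBT the order of the genotypes was the opposite, with -0.295, -0.153 and -0.307 in omf201 and -0.579, -0.760 and -1.10 in WT, without overlap, but 0 of its 77 windows passed the test at that stage. Before scaling, the mean smoothed ratios of the run at preMBT were 0.994 in omf201 and 0.978 in WT. At Shield these ratios did not overlap, at 1.089 to 1.128 in omf201 and 1.154 to 1.173 in WT. Nor did they at Bud, at 1.094 to 1.115 in omf201 and 1.132 to 1.193 in WT. In 24hpf S nuclei the counts, scaled to the library mean, were 1.06 ± 0.00711 in omf201 and 1.31 ± 0.00880 in WT, whereas in G1 nuclei they were 1.06 ± 0.0124 in omf201 and 1.08 ± 0.00732 in WT (SD, n = 4 each). The run lies inside a stretch of 130 windows below -0.8 at 24hpf, from 31600000 to 32970001.

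**Figure D5:**
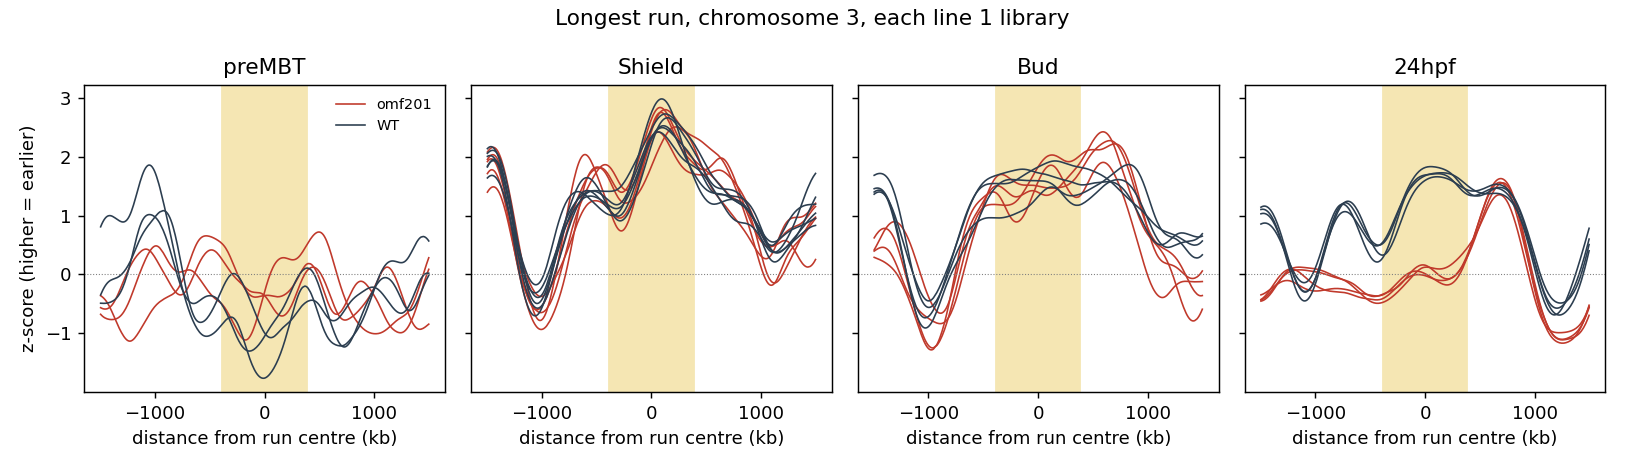
z-score of every library around the centre of the longest run (chromosome 3, shaded), by distance in kb, 1 panel per stage, omf201 and WT. At 24hpf the WT lines peak inside the run and the omf201 lines stay near 0, while at Shield and Bud the lines of the genotypes run together.

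The run on chromosome 21 from 13020000 to 13410001 (34 windows) was one of the 8 runs bounded on both sides by the 24hpf limit. At 24hpf it had -0.526, -0.649, -0.876 and -0.664 in omf201 and 0.660, 0.694, 0.495 and 0.780 in WT. At Bud it had 0.759, 1.12, 1.34 and 0.892 in omf201 and 1.17, 1.34, 1.34 and 0.874 in WT, so the genotypes overlapped there and both were lower at 24hpf, with changes of -1.71 in omf201 and -0.521 in WT. The rule favours both the gap at 24hpf and the overlap at Bud.

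A run on chromosome 6 from 41390000 to 41760001 (32 windows) showed the WT advance most clearly among the 14 runs described by length or depth. At Bud it was late in both genotypes, with -0.603, -1.03, -0.597 and -0.794 in omf201 and -0.647, -0.629, -0.909 and -0.790 in WT. At 24hpf the omf201 samples had -0.570, -0.439, -0.508 and -0.613 and the WT samples 0.856, 0.816, 0.811 and 0.812. The change from Bud was 0.224 in omf201 and 1.57 in WT. On chromosome 2 from 25020000 to 25520001 (42 windows) the change was -0.213 in omf201 and 0.736 in WT, and the 24hpf means were 0.0343 ± 0.0918 in omf201 and 1.11 ± 0.0910 in WT (SD, n = 4 each).

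The lowest mean differences among runs of at least 5 windows were -1.72 on chromosome 1 from 24910000 to 25040001 (8 windows) and -1.70 on chromosome 22 from 10330000 to 10570001 (19 windows). The chromosome 22 run was early at Bud in both genotypes, with 1.78, 1.99, 1.82 and 1.72 in omf201 and 1.74, 2.04, 1.63 and 1.58 in WT. At 24hpf it had 0.0539, -0.152, 0.0765 and 0.00289 in omf201 and 1.53, 1.95, 1.72 and 1.58 in WT. The chromosome 1 run had -0.623, -0.288, -0.464 and -0.679 in omf201 and 1.06, 1.27, 1.11 and 1.36 in WT at 24hpf. In both runs the z-scores of the genotypes were far apart at 24hpf and overlapped at Bud. The rule and the choice of the lowest runs favour this, so nothing is read from it. Before scaling, the smoothed ratios at Bud did not overlap. They were 1.077 to 1.115 in omf201 and 1.124 to 1.170 in WT on chromosome 1. On chromosome 22 they were 1.120 to 1.129 in omf201 and 1.150 to 1.223 in WT.

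On chromosome 21 from 26550000 to 26950001 (35 windows) the 24hpf values were -0.432, -0.558, -0.299 and -0.339 in omf201 and 1.13, 1.21, 1.11 and 1.24 in WT, a difference of -1.58. On chromosome 23 from 25280000 to 25740001 (39 windows) they were 0.118, 0.0191, -0.0986 and -0.0644 in omf201 and 1.53, 1.23, 1.54 and 1.49 in WT, a difference of -1.45. Further along chromosome 23, from 36660000 to 37090001 (38 windows), they were -0.685, -0.395, -0.720 and -0.453 in omf201 and 0.720, 0.823, 0.849 and 0.672 in WT. In each of these 3 runs the groups were separated by far more than their spread at 24hpf, but the rule chose the windows by this gap in these samples. The last of them again lay in the middle of the order at Bud, at 0.0182 ± 0.287 in omf201 and 0.0398 ± 0.232 in WT (SD, n = 4 each), and moved in opposite directions from there, by -0.582 in omf201 and 0.726 in WT.

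The other runs among the 12 longest had differences of -1.15 to -0.95. On chromosome 7 from 19340000 to 19850001 (44 windows) the 24hpf means were -0.0968 ± 0.130 in omf201 and 1.01 ± 0.0461 in WT (SD, n = 4 each). On chromosome 2 from 20840000 to 21240001 (35 windows) they were -0.288 ± 0.0944 in omf201 and 0.723 ± 0.0801 in WT, and from 37150000 to 37570001 (35 windows) 0.195 ± 0.0654 in omf201 and 1.19 ± 0.0607 in WT (SD, n = 4 each). On chromosome 21 from 30430000 to 30820001 (34 windows) they were -0.373 ± 0.0688 in omf201 and 0.581 ± 0.160 in WT, and on chromosome 25 from 19620000 to 19980001 (31 windows) -0.323 ± 0.0604 in omf201 and 0.830 ± 0.127 in WT (SD, n = 4 each). The 12 longest runs together held 476 windows, or 25.8% of the members.

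With 1 G1 reference common to both genotypes, the 24hpf differences of the 14 runs ranged from -1.83 to -0.827. In 3 of the 14 the differences at Bud or Shield then passed 0.3. On chromosome 25 they were -0.39 at Bud and -0.34 at Shield, on chromosome 7 the Shield difference was 0.41, and on chromosome 21 from 30430000 it was 0.36.

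Members were found on all 25 chromosomes, and unevenly. Chromosome 21 held 187 windows in 13 runs, which is 10.1% of the members and 4.48% of the windows of that chromosome. Chromosomes 2 and 7 followed with 164 and 151 windows. The lowest shares were 0.394% on chromosome 16 and 0.398% on chromosome 4, where 0 members lay on the long arm (windows from position 28000000). Members lay away from chromosome ends, with a median distance of 18.0 Mb, against 13.7 Mb for all windows and 13.0 Mb for the windows later at 24hpf, Bud and Shield. In the outermost 1 Mb lay 28 members (1.52%), against 2.82% of all windows and 4.86% of the windows later at all 3 stages. Of the members 95.0% were windows of 60 kb, against 90.4% of all windows.

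Across members, the 24hpf difference had a Pearson correlation of -0.37 with the WT z-score at 24hpf, which is itself a term of that difference, and -0.29 with the WT z-score at Bud (n = 1843 overlapping windows that share libraries and a G1 reference, as a description). Over all windows these correlations were -0.386 and -0.445, so neither was larger among the members. With the small differences the rule left, it was 0.031 at Bud and 0.093 at Shield. Over all 120059 windows the corresponding correlations with the Bud and Shield differences were 0.716 and 0.237, and the rule's narrow limits reduce such correlations by themselves.

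The preMBT samples were not used by the rule and allowed a test, though the G1 reference of each genotype is shared with the later stages. With limma across all windows, 126 members (6.84%) differed between the genotypes at an adjusted p under 0.05, 93 higher and 33 lower in omf201, against 12.7% of all windows (6.47% higher and 6.27% lower). The share of called members was thus under the background, while the balance lay towards higher values in omf201: the median difference was 0.19, against 0.0042 for all windows. Every omf201 sample lay above every WT sample in 322 members (17.5%), against 14.1% of all windows, and below in 120 (6.51%), against 14.0%. Neighbouring windows repeat each other, and the calls fell in 19 runs, 12 higher and 7 lower. The balance depended on the G1 reference: with 1 common reference 155 members (8.41%) were called, against 18.3% of all windows, and the median difference was 0.018, and in whole-embryo counts without any reference edgeR called 59 members, against 5.5% of all windows, with a median log2 difference of -0.0024. Leaving out any 1 of the 6 libraries left 53 to 86 calls (2.88% to 4.67% of the members), against 8.68% to 10.2% of all windows.

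The preMBT calls were concentrated in few runs. On chromosome 18 from 34040000 to 34290001 all 20 windows were called, with limma adjusted p of 0.00175 to 0.0356. The run means were 0.786, 0.528 and 0.423 in omf201 and -1.23, -0.240 and -1.51 in WT. Every omf201 sample thus lay above every WT sample at preMBT, though WT replicate 2, at -0.240, was near the middle of the order. At 24hpf the order was the opposite, with means of -0.447 in omf201 and 0.651 in WT. The sizes of these z-score differences cannot be compared between stages, since each library is scaled to its own SD. Over all members the median smoothed ratios at preMBT were 1.001 in omf201 and 0.995 in WT. At 24hpf they were 0.985 in omf201 and 1.145 in WT. On chromosome 7 from 28800000 to 28950001 all 10 windows were called (limma adjusted p of 0.00227 to 0.0277), with 0.652, 0.860 and 1.14 in omf201 and -0.770, -0.495 and -0.267 in WT. On chromosome 13 from 35690000 to 36050001, 17 of 31 windows were called (limma adjusted p of 0.0131 to 0.0460), with 0.862, -0.347 and -0.0159 in omf201 and -0.744, -1.19 and -0.856 in WT. The run with the most windows called lower lay on chromosome 8 from 11400000 to 11540001, where all 9 windows were called lower (limma adjusted p of 0.0265 to 0.0312), with 0.285, -0.791 and -0.448 in omf201 and 0.732, 1.44 and 0.602 in WT. In each of these 4 runs the genotypes did not overlap at preMBT, but the runs were named for calls on these same libraries. Their values use the G1 reference of each genotype, on which the preMBT balance depended.

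DNA of G1 nuclei, which have not begun replication, was compared between the genotypes as a control for copy number. It enters the z-scores as the reference, so this comparison is not independent of the rule. At 24hpf edgeR called 30 members (1.63%), 12 higher and 18 lower in omf201, against 3.67% of all windows (1.91% higher and 1.76% lower). The median log2 difference was -0.011 over members and -0.00058 over all windows. In G1 counts scaled to the library mean, the difference at 24hpf was below 0 in 1130 members (61.3%), against 50.3% of all windows. At Bud it was below 0 in 957 members (51.9%), against 49.0%. At Bud edgeR called 24 members (1.30%), 16 higher and 8 lower, against 2.7% of all windows (1.16% higher and 1.54% lower), with a median log2 difference of -0.0025.

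A few runs carried the G1 calls. On chromosome 2 from 43790000 to 44010001, 11 of 17 windows were called at Bud with a mean log2 difference of 0.27 (edgeR adjusted p of 1.3e-06 to 0.0114). On chromosome 2 from 1850000 to 2080001, 7 of 12 windows were called at 24hpf with a mean of -0.19 and 3 at Bud with a mean of -0.20, the same direction at both stages. In the second-longest run, on chromosome 7 from 19340000, 7 of 44 windows were called at 24hpf with a mean of 0.23. A higher G1 count can lower the omf201 ratio. The reference also holds the Bud G1 libraries, in which 0 windows of this run were called. With 1 G1 reference common to both genotypes, the run's 24hpf difference was -1.02, against -1.10 with a reference for each genotype. The effect of the called windows alone was not measured. Over the whole of that run the G1 counts, scaled to the library mean, were 0.962 ± 0.0129 in omf201 and 0.952 ± 0.0115 in WT, and the S counts 0.966 ± 0.0172 in omf201 and 1.10 ± 0.00762 in WT (SD, n = 4 each). The genes under the members were not analysed here.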

How the data were processed

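Genomic DNA of 49 libraries was sequenced, and the authors' tables hold counts, ratios, smoothed ratios, log2 ratios and z-scores per window. Per the submitters' processing notes, reads went through fastp, BWA and Picard on build GRCz11, and per the labels the RepliTimer v1.0.11 pipeline was used. The deposited counts are whole reads per window, without normalisation. The deposited ratio is a count over its library mean, divided by the median of 8 mean-scaled G1 libraries of the same genotype. The deposited smoothed signal is a spline of these ratios (penalty 1e+16 bp cubed, broken at gaps over 200000 bp), the deposited log2 value its log2, and the deposited score, the z-score, its value scaled per library. All these steps were recomputed, and the largest differences were 4.97e-07 (ratio), 6.93e-07 (smoothed), 7.19e-07 (log2) and 1.85e-05 (z-score). The 23 count windows without a profile were left out of profiles.

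The members, sets and tests were chosen with earlier results of these data known. The rule used means over library columns, and sample values in the text average the noise-level pairs at Shield. Runs join neighbouring members, and the 12 longest and the 2 lowest of at least 5 windows were named, while runs with calls at preMBT or in G1 DNA were named after their values were seen. preMBT z-scores were tested with limma 3.58.1 and G1 counts with edgeR 4.0.16 (quasi-likelihood, TMM, filterByExpr) in R 4.3.3, over all windows with Benjamini-Hochberg adjustment, called at an adjusted p under 0.05. DESeq2 1.42.0, other limits, a common G1 reference, other scales and left-out libraries were the alternatives. The fits were tested on simulated independent windows, with changes larger than the mean changes of the runs called here. That check does not bear on changes of the reported size or on overlapping windows. Errors given are SDs between samples, and reads were not tagged by molecule. Gene lists and named genes were not run, since no annotation of GRCz11 was used here. Python 3.11.15 with numpy 2.4.6, scipy 1.17.1, pandas 2.3.3 and matplotlib 3.10.9 was used.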

Additional observations from a re-analysis of the deposited data

Results flagged for a closer look

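Over the means of the 14 named runs and the medians over all members at Shield, Bud and 24hpf, 90 groups of 4 samples were checked for a sample standing apart from the other samples of its stage and genotype, and 9, all in named runs, had one by Dixon's test at the 95% level. Chance flags about 1 in 20 groups (5%), and no cause was tested.

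At 24hpf, WT replicate 2 had a mean z-score of 1.23 in the run on chromosome 23 from 25280000, while its fellow WT samples had 1.49 to 1.54, and WT replicate 1 had 0.856 in the run on chromosome 6 from 41390000, against 0.811 to 0.816. Both values stayed far above the omf201 samples. At Bud, omf201 replicate 3 had 0.830 in the run on chromosome 2 from 20840000, against 1.28 to 1.35.

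The other 6 were at Shield. Among omf201 samples, replicate 3 had 2.01 in the run on chromosome 21 from 30430000, against 1.49 to 1.58, and replicate 4 had 1.14 in the run on chromosome 1 from 24910000, against 0.651 to 0.696. Among WT samples, replicate 5 had 2.03 in that chromosome 21 run, against 1.46 to 1.48, and replicate 6 had 0.500 in the run on chromosome 21 from 26550000, against 0.781 to 0.817. The averaged WT pair 3 and 4 had -0.295 in the run on chromosome 2 from 25020000, against -0.139 to -0.122, and 0.229 in the run on chromosome 25 from 19620000, against 0.553 to 0.615.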

How the results depend on the processing

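The count of 1843 windows followed the limits: 921 with 0.2 in place of 0.3 at Shield and Bud, 3288 with 0.4, 2463 and 1401 with -0.7 and -0.9 at 24hpf, 593 on log2 ratios in WT SDs, and 1834 to 1913 with single 24hpf libraries left out. A common G1 reference gave 1761 windows, of which 950 were members (51.5% of the members), and averaging the Shield pairs gave 1836 with 1713 shared. The median 24hpf difference of -1.04 was -1.08 with a common G1 reference and -1.06 to -1.03 with single libraries left out. The 126 preMBT calls were 59 with edgeR on counts without a G1 reference, where the median reversed to -0.0024 on the log2 scale, and 53 to 86 without single libraries, where the median of 0.19 ranged over 0.14 to 0.22. With a common G1 reference they were 155, with a median of 0.018. The 24 G1 calls at Bud were 9 with DESeq2 and 14 to 35 without single libraries. Their median of -0.0025 log2 ranged from -0.0041 to 0.00049, reversing only without WT replicate 3. The 30 G1 calls at 24hpf were 17 with DESeq2 and 12 to 33 without single libraries. Same-numbered replicates did not deviate together (correlations of -0.035 to 0.021), and with the replicate block the calls were 130 at preMBT, 29 in G1 at Bud and 28 in G1 at 24hpf. All 140 alternative values of the 14 named runs stayed below 0, but the rule chose the windows by this sign in the same libraries, so nothing is read from that count. On the z-score scale 2 moved by more than 1 SD, to -1.54 on chromosome 3 and -1.29 on chromosome 25, both with a common G1 reference. The log2 values were compared by sign only. The causes were not tested. Shallow libraries, from 5.90 M counts at Bud, limit the small differences.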
